A study of Mus musculus with 21 samples.

Results

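The ADAM genes encode membrane proteins with a disintegrin and a metalloprotease domain. The members described here are the rows of the RNA-seq table whose gene symbol is Adam, a number and, where given, the letter a or b, which took in 32 of 37620 genes. They were placed in 3 classes from general knowledge of where each gene is used. The testis class held 19 members, the widely expressed class 6 and the class restricted to other tissues 7. Another 5 symbols of the testis list (Adam20, Adam36, Adam37, Adam38 and Adam40) matched no row.

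The RNA came from germ cells that the study enriched from testes of C57BL/6J males at 12 dpp (days post-partum) by collagenase and trypsin digestion. The labels call these cells spermatocytes. The 12 libraries fall into 4 sample numbers of 3 libraries each, which are called 186wt, 343wt, 444wt and 456wt, and all have the same strain, age and preparation, so that no treatment or genotype was compared. The labels do not say whether the 3 libraries of a number came from separate animals, so p-values between sample numbers measure the spread between libraries, which may be technical. Each sample value is the average of its 3 libraries, and a mean ± SD is over the 4 samples unless stated.

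An ADAM protein is made with a prodomain that a convertase such as furin removes, and the active enzymes then cut the outer part of other membrane proteins, a step called shedding. Widely expressed members such as ADAM10 and ADAM17 shed Notch receptors, cytokines and growth factors. Many of the testis members lack a working protease site and act on the sperm surface, where they form complexes that sperm need to pass into the oviduct and to bind the egg coat. Testis members differ in gene structure, since some have many introns like the widely expressed genes and others have few or none.

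The promoters of Adam10 and Adam17, the main shedding enzymes of the widely expressed class, are shown first. With them stand the promoters of both fertilin alpha genes (Adam1a and Adam1b) and of 2 testis members listed at 0. The first 2 differ from the others in CG content. Each is the RefSeq window from 250 bases before to 50 bases after the gene's start, written 5′ to 3′ on the gene's strand, with each CG dinucleotide in capitals. Coordinates of these windows are on GRCm38.p6. The windows are Adam10 at chr9:70678732-70679031 on the plus strand, Adam17 at chr12:21373583-21373882 on the minus strand, Adam1a at chr5:121521646-121521945 and Adam1b at chr5:121503386-121503685, both on the minus strand, Adam29 at chr8:55906915-55907214 on the minus strand, and Adam6a at chr12:113543658-113543957 on the plus strand.
Adam10: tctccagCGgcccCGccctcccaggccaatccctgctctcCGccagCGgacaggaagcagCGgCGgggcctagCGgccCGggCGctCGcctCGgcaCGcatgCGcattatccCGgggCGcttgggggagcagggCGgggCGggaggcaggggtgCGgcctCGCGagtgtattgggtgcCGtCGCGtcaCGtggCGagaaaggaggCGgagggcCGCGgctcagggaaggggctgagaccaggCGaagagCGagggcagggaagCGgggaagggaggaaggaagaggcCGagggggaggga
Adam17: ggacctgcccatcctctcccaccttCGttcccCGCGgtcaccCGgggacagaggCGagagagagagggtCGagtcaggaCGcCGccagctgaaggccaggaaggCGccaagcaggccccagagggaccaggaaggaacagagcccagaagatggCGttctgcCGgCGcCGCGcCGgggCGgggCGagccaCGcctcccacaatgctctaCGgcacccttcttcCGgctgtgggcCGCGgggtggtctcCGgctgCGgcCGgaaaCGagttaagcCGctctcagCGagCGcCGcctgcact
Adam1a: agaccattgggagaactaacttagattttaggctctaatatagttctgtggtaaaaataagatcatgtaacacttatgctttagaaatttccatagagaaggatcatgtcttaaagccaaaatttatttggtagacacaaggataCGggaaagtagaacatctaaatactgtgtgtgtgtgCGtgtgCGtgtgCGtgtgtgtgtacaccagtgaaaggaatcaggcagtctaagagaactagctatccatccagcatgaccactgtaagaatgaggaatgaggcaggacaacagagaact
Adam1b: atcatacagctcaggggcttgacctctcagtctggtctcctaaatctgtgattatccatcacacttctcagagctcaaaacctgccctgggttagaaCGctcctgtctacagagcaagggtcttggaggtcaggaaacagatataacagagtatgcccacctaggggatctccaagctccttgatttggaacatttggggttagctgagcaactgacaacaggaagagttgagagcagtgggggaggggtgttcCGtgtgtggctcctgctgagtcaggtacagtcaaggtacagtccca
Adam29: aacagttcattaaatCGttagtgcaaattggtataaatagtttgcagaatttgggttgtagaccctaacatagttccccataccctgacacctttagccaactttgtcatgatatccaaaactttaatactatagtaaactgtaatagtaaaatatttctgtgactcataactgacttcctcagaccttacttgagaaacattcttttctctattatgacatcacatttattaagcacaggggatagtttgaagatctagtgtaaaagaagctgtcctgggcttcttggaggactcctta
Adam6a: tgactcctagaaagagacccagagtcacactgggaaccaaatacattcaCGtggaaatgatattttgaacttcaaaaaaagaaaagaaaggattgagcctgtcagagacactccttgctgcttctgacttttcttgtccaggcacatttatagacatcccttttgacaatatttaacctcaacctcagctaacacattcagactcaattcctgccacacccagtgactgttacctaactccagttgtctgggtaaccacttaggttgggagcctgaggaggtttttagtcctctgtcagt

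Of the 32 members, 16 had a promoter window in the RefSeq table, with 18 windows in all. The Adam10 window held 32 CG dinucleotides, the Adam17 window 30 and the Adam15 window 25, against a median of 7 over all 32851 windows of the table. The windows of the 9 testis members held 0 to 4, with a median of 1. Adam1a had 4, Adam1b had 2, Adam25, Adam29 and Adam6a had 1 each, and Adam21, Adam34, Adam6b and Adam26b had 0. All 9 testis windows thus held at most 5 CG, as did 43.6% of all windows. These 9 members all have at most 3 exons. The testis members with many exons (Adam2, Adam3, Adam5, Adam18 and Adam32) had no window, nor had Adam9 and Adam12. Testis class and gene structure can therefore not be told apart in these windows. Adam19, of the widely expressed class, had windows with 5, 11 and 5, just above the highest testis window. Among the members restricted to other tissues Adam23 had 31, Adam22 had 19 and Adam8 had 6. The cAMP response motif TGACGTCA, searched on both strands, was in none of the members' windows and in 1.79% of all windows. The letters TATAAA, on either strand, were in 3 member windows, those of Adam29, Adam6a and Adam6b, and in 13.6% of all windows.

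**Figure D1:**
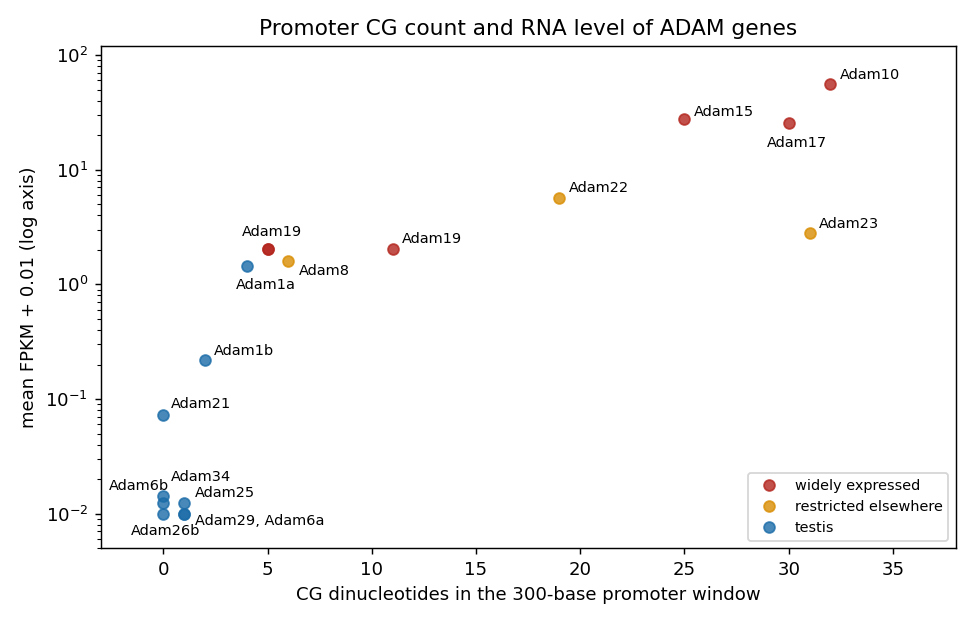
CG dinucleotides in each 300-base RefSeq promoter window (horizontal axis) against the member's mean FPKM over 4 samples plus 0.01 (vertical axis, log scale), 1 point for each of 18 windows, coloured by class, so that Adam19 has 3 points. The 9 testis windows, all of members with at most 3 exons, lie at 0 to 4 CG. Adam10, Adam17 and Adam15 lie at 25 to 32 CG with the 3 highest levels.

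RNA levels are given in FPKM, fragment counts divided by transcript length and library size, so that levels of different genes are compared per length. A member was counted as detected where the average over the 4 samples reached 0.1 FPKM. By this measure 20 of 32 members were detected, against 55.3% of all genes in the table and 74.2% of its protein-coding genes, which all 32 members are. At 1 FPKM or more the count was 13 members, against 38.1% of all genes. All 6 widely expressed members were at 1 FPKM or more, as were 5 of 7 members restricted to other tissues and 2 of 19 testis members (Adam2 and Adam1a). The depth, estimated from the steps between low FPKM values, was 12.88 to 17.98 M (mega) fragments per library and 181.9 M in all.

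A few genes of the widely expressed class supplied most of the family's RNA. Adam10, a sheddase of Notch and of the amyloid precursor protein, was highest with 55.6 ± 7.89 FPKM (SD, n = 4), above 95.6% of all genes. Adam15 had 27.5 ± 5.20 FPKM, Adam17 (the converting enzyme of tumour necrosis factor) 25.3 ± 0.924 FPKM and Adam9 18.9 ± 3.17 FPKM. Adam15 and Adam17 lay closer to each other than the spread of Adam15 over the samples. Together these 4 genes made up 83.5% ± 2.72 of the summed FPKM of the family. The remaining members of the class were lower, with 2.46 ± 1.10 FPKM for Adam12 (meltrin alpha) and 2.03 ± 0.415 FPKM for Adam19 (meltrin beta).

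Among members restricted to other tissues, the neural genes Adam22, Adam11 and Adam23 led. These genes encode ADAM proteins without protease activity, of which ADAM22 and ADAM23 bind secreted LGI proteins at synapses. Adam22 had 5.69 ± 0.546 FPKM, Adam11 3.38 ± 1.11 FPKM and Adam23 2.78 ± 1.04 FPKM. Adam8, known from leukocytes, had 1.59 ± 0.560 FPKM, and Adam33, known from mesenchymal cells, 1.12 ± 0.467 FPKM. The level of Adam28 was 0.128 ± 0.0185 FPKM. Adam7, an epididymal gene, was at 0 in 9 libraries and at 0.05, 0.06 and 0.08 FPKM in the 3 libraries of 456wt.

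The testis class was low, and its detected members fell into a multi-exon and an intron-poor group. Adam2 (fertilin beta), the partner of ADAM1 in the fertilin complex, was highest with 2.48 ± 1.62 FPKM, followed by Adam1a with 1.44 ± 0.335 FPKM. Adam5 had 0.696 ± 0.461 FPKM and Adam32 0.582 ± 0.410 FPKM. Adam3 (cyritestin), which sperm need for binding to the egg coat, had 0.218 ± 0.260 FPKM. Adam30 had 0.215 ± 0.0868 FPKM, Adam1b 0.207 ± 0.105 FPKM and Adam4 0.108 ± 0.0555 FPKM. Without 343wt the mean of Adam4 was 0.0944 FPKM, under the minimum of 0.1 FPKM. For Adam3 the SD was larger than the mean.

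Members under 0.1 FPKM were all but 1 of the testis class. Adam18 reached 0.177 FPKM in its highest sample, 456wt, and Adam21 reached 0.107 FPKM in 444wt. Adam34, Adam25, Adam26a and Adam6b had sample means of at most 0.01 FPKM. Adam24, Adam26b, Adam29, Adam39 and Adam6a were listed at 0 in all 12 libraries, 5 of 32 members against 27.7% of all genes. None of 77 ribosomal protein genes was at 0 in every library, so a value of 0 was read as no fragment counted. All 5 genes at 0 have a single annotated transcript, for which 3 fragments over the 12 libraries correspond to between 0.00587 FPKM (Adam24) and 0.00704 FPKM (Adam26b). These limits cover counting error only. By the same estimate Adam2 rested on about 1118 fragments, Adam1a on 793, Adam1b on 106, Adam30 on 89, Adam21 on 32, Adam34 on 2 and Adam25, Adam26a and Adam6b on 1 each.

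**Figure D2:**
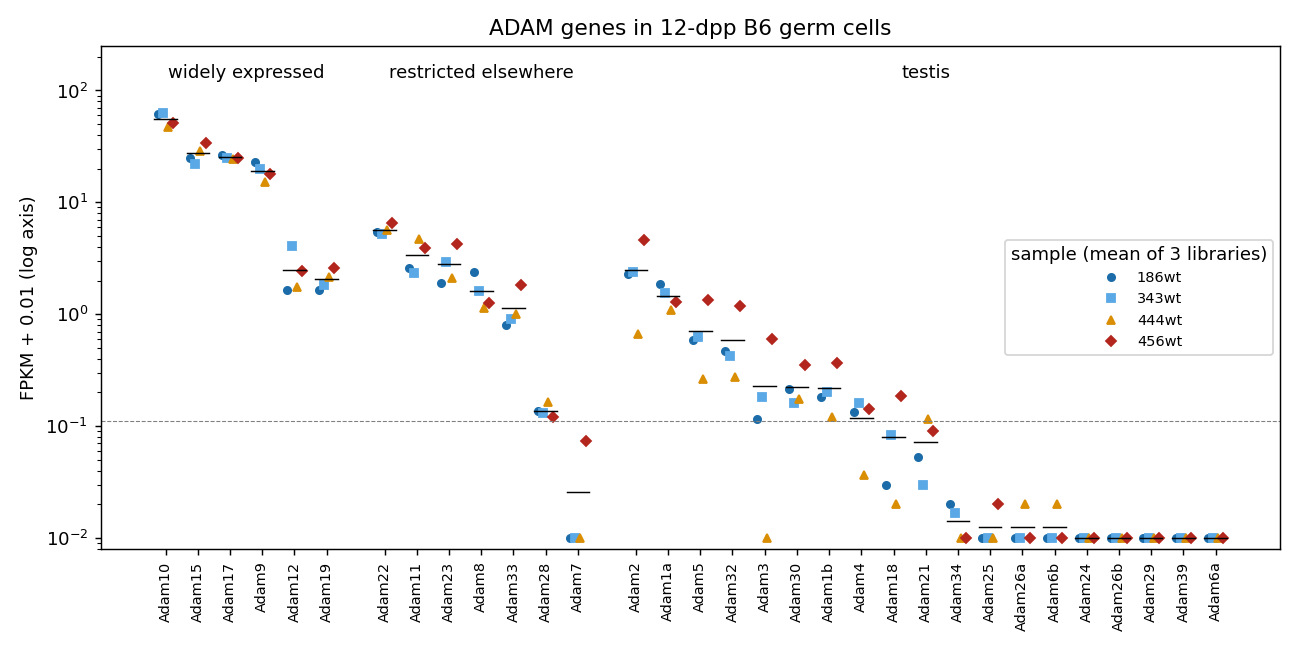
FPKM plus 0.01 (log axis) of all 32 members in the 4 samples, each point the mean of 3 libraries, with a black line at the mean of the samples and a dashed line at the detection minimum of 0.1 FPKM. The 6 widely expressed members lie at means of 2.03 to 55.6 FPKM, and 11 of 19 testis members lie below the dashed line.

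Testis members were compared with widely expressed ones by the difference of their class medians on the log2(FPKM + 0.1) scale, once in each sample. The median level was 0.0625 FPKM for the testis class and 22.1 FPKM for the widely expressed class. The difference of testis minus widely expressed was -7.64 in 186wt, -7.45 in 343wt, -7.46 in 444wt and -6.89 in 456wt. The mean difference was -7.36 ± 0.328 (SD, n = 4), so every sample gave the same direction and the spread between samples was small beside the difference. Its size follows the pseudocount, being -9.22 with 0.01 and -4.43 with 1 in place of 0.1. Classes are made of genes, not replicates, and no p-value is given. The highest testis member, Adam2, was as high as the lower members of the widely expressed class, since Adam12 with 2.46 FPKM and Adam19 with 2.03 FPKM lay within the SD of Adam2.

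Detection in the testis class was also counted by gene structure. The 5 multi-exon testis members (Adam2, Adam3, Adam5, Adam18 and Adam32) have 20 to 22 exons in GENCODE M1, and 4 of them were detected. Of the 14 members with at most 3 exons, all of the testis class, 4 were detected (Adam1a, Adam1b, Adam30 and Adam4). Among all protein-coding genes the detected share was 45.7% with at most 3 exons and 84.8% with more. Of the intron-poor members 5 of 14 were at 0 in every library, against 33.5% of protein-coding genes with at most 3 exons. None of the 18 multi-exon members of the family was at 0 in every library (4.35% of such genes), and 16 of them were detected. With so few members, nothing particular to the family is read from these shares.

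Several of the intron-poor values are less certain than the others. RSEM shares reads that fit several transcripts among them. Of the 100-base words in their transcripts, Adam1a shared 32.8% with Adam1b, and Adam1b shared 35.3% with Adam1a. Adam6a and Adam6b shared 13.4% and 13.6% with each other. Adam25, Adam39, Adam26a and Adam26b shared 14.6% to 17.8% with each other or a related gene, while Adam2, Adam3, Adam5, Adam18 and Adam32 shared none. Adam1a, at chr5:121968613-121971704 on NCBI build 37, lies within Mapkapk5, a kinase gene on the same strand at 49.3 FPKM, so reads of unspliced Mapkapk5 RNA cannot be told apart from those of Adam1a. Adam4 likewise overlaps Synj2bp (21.4 FPKM) and Cox16 (22.8 FPKM) on the same strand.

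A single stretch of chromosome 8 holds both kinds of member side by side. On NCBI build 37 the genes Adam18 (25712718-25785227), Adam3 (25787697-25836324), Adam5 (25837565-25934841), Adam32 (25946612-26059276) and Adam9 (26060083-26127394) lie in this order on the minus strand within 414.7 kb. All have 20 to 23 exons, and the annotation places only 2 small RNA genes, both at 0 FPKM, between the ends of the stretch. Adam32 and Adam9 are 806 bp apart, yet Adam9 had 18.9 FPKM and Adam32 0.582 FPKM. Adam9 exceeded the sum of its 4 neighbours in every sample, by 19.5-fold in 186wt, 15.7-fold in 343wt, 28.7-fold in 444wt and 5.42-fold in 456wt. A further 7 members lie distally on chromosome 8 (Adam24, Adam25, Adam39, Adam26b, Adam26a, Adam34 and Adam29). Each of these has 2 exons, and their means were 0 to 0.00417 FPKM.

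**Figure D3:**
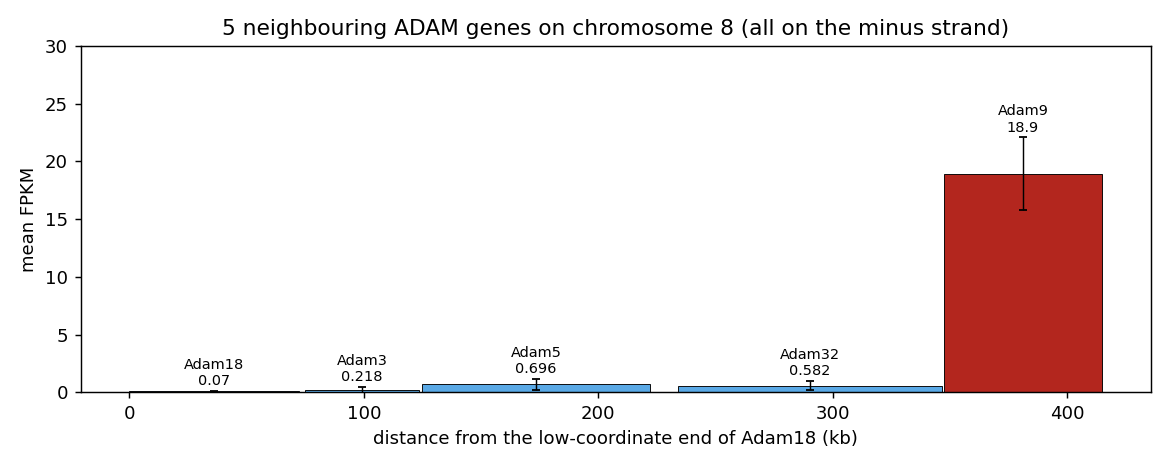
Mean FPKM (bar height, with SD over 4 samples) of the 5 neighbouring genes on chromosome 8, each bar as wide as the gene, by distance in kb from the low-coordinate end of Adam18. The widely expressed Adam9 (red) stands at 18.9 FPKM beside 4 testis members (blue) at 0.07 to 0.696 FPKM.

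On the log2(FPKM + 0.1) scale the multi-exon testis members that were tested differed most between the 4 samples. Differences between sample numbers were tested with the limma F-test on log2(FPKM + 0.1) over the 20795 genes that reached 0.1 FPKM on average. At an adjusted p under 0.05 the test called 58.2% of these genes and 15 of the 20 members tested. The share called rises with level, being 14.2% for genes at 0.1 to 0.5 FPKM, 49.7% at 0.5 to 5 FPKM and 82.5% at 5 FPKM or more. In the same ranges 1 of 5, 10 of 10 and 4 of 5 members were called. The range from the lowest to the highest sample had a median of 0.96 over the 20 members on the log2 scale, against 0.55 over all genes tested. These 2 sets differ in level, since 5 of 20 members and 10402 of 20795 genes were at 5 FPKM or more. Ranges were not compared within levels. The range was over 1 in 7 called members (Adam2, Adam3, Adam5, Adam32, Adam12, Adam23 and Adam33). Of all genes tested 10.5% were called with such a range. With a pseudocount of 1 in place of 0.1 only Adam2 (range 1.76) still led. Adam12 (0.931) then lay above Adam5 (0.902), and Adam23 (0.838) lay above Adam32 (0.781) and Adam3 (0.665).

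Adam2 had 1.98, 2.10 and 2.78 FPKM in the libraries of 186wt, 2.32, 2.41 and 2.32 in 343wt, 0.86, 0.55 and 0.56 in 444wt, and 4.39, 5.01 and 4.42 in 456wt. All libraries of 456wt lay above and all of 444wt below the other 6, and the sample means differed by up to 7.02-fold (log2 range 2.66, limma adjusted p = 6.79e-07). Adam3 had 0.18, 0.07 and 0.07 FPKM in 186wt, 0.12, 0.25 and 0.15 in 343wt, 0 in each library of 444wt, and 0.39, 0.75 and 0.64 in 456wt. Again 456wt was above and 444wt below all other libraries (range 2.76, limma adjusted p = 0.00025). Adam3 passed the filter on low values only through 456wt, without which its mean was 0.0933 FPKM.

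The neighbours Adam5, Adam32 and Adam18 had the same highest and lowest samples as Adam3. Adam5 had 0.57, 0.78 and 0.38 FPKM in 186wt, 0.72, 0.59 and 0.52 in 343wt, 0.31, 0.28 and 0.17 in 444wt, and 1.34, 1.50 and 1.19 in 456wt, with neither 456wt nor 444wt overlapping the rest (range 2.05, limma adjusted p = 0.000258). Adam32 had 0.26, 0.86 and 0.27 FPKM in 186wt, 0.48, 0.43 and 0.33 in 343wt, 0.20, 0.27 and 0.33 in 444wt, and 1.46, 1.04 and 1.05 in 456wt. For Adam32 only 456wt stood apart (range 1.81, limma adjusted p = 0.00521), and without 456wt the range was 0.49 with a limma adjusted p of 0.489. The level of Adam18, below the minimum and not tested, was 0.02 FPKM in 186wt, 0.0733 in 343wt, 0.01 in 444wt and 0.177 in 456wt. Its libraries of 456wt, at 0.15 to 0.20 FPKM, were above all others.

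All 4 tested multi-exon testis members were called, and all were highest in 456wt and lowest in 444wt. Of all genes tested 2.93% were called with this order, which is 609 of the 12107 genes called. For Adam3, which was tested only because of its level in 456wt, this order is partly fixed by the filter. The summed FPKM of the 5 genes was 3.45 in 186wt, 3.62 in 343wt, 1.19 in 444wt and 7.90 in 456wt. The summed FPKM of the 14 intron-poor testis members varied less, with 2.41, 2.07, 1.51 and 2.19 in the same order. Most of that sum was Adam1a, with 1.85, 1.55, 1.08 and 1.27 FPKM, so it says little about the others. Among the others detected, none of them called, Adam1b was highest in 456wt and lowest in 444wt. Adam30 was highest in 456wt and lowest in 343wt, and Adam4 highest in 343wt and lowest in 444wt. Leaving out 456wt lowered the means of Adam3, Adam32 and Adam18 by over 1.5 times, to 0.0933, 0.381 and 0.0344 FPKM. Adam2 was still called without 456wt (range 1.72, limma adjusted p = 7.01e-05) and without 444wt (range 0.99, limma adjusted p = 0.000256). In bulk RNA fewer cells of a type and less RNA per cell cannot be told apart.

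**Figure D4:**
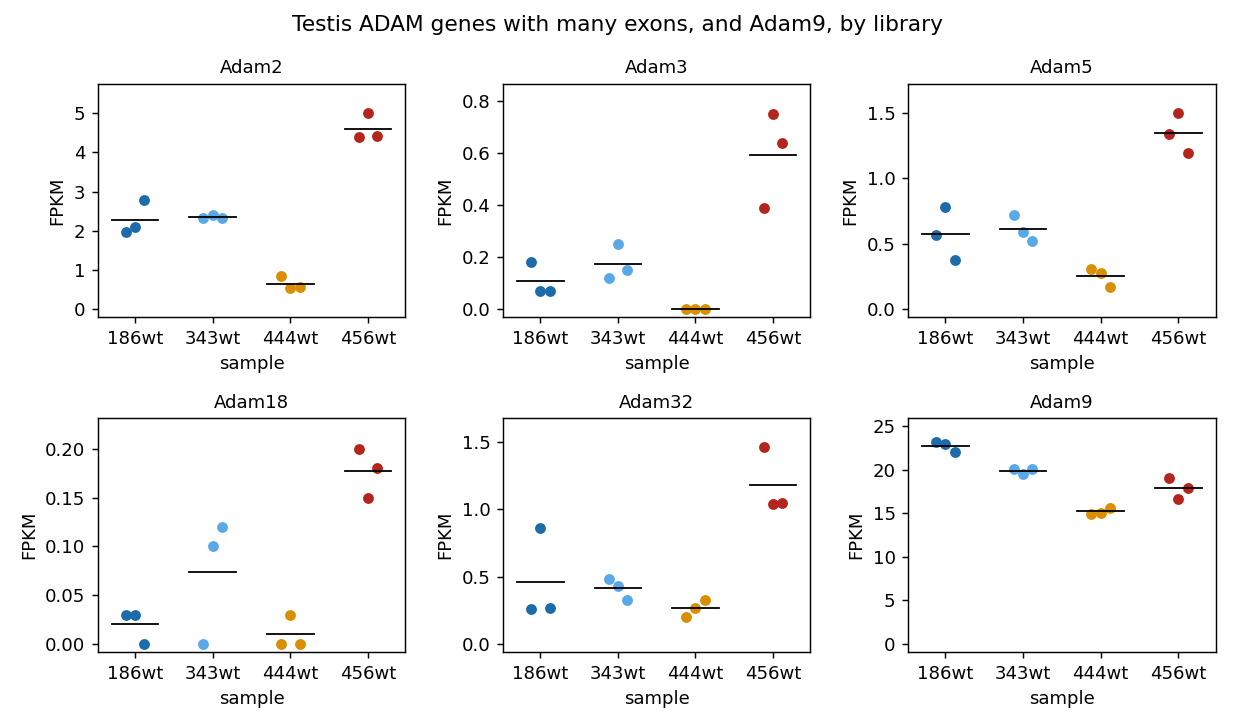
FPKM of each library (points, 3 per sample) with the mean of the sample (line) for the 5 multi-exon testis members and Adam9, each panel on its own axis. In the testis members the points of 456wt lie highest, and in Adam9 those of 186wt do, at 22.1 to 23.1 FPKM.

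Marker genes of other cell types also differed between the samples. All Sertoli, Leydig, peritubular myoid, endothelial and macrophage markers found (32 genes, with Rhox5 not found) were at 0.1 FPKM or more, as were all 8 early meiotic and all 7 spermatogonial markers found, so the libraries hold somatic RNA beside that of germ cells. Over 186wt, 343wt, 444wt and 456wt the summed FPKM was 3073, 3162, 1744 and 1940 for the 9 Sertoli markers and 591, 298, 740 and 1191 for the 6 myoid markers. It was 17.1, 22.3, 14.6 and 35.8 for the 6 endothelial markers, 5 of which were highest in 456wt and lowest in 444wt by the limma test. Among pachytene markers that order was called for 2 of 7, Ldhc (5.96, 7.42, 1.84 and 13.5 FPKM) and Piwil1. The list's sum, mostly Mael, Ybx2 and Hspa2, was 216, 179, 247 and 254. Of these genes, all called, Hspa2 and Ybx2 were highest in 186wt and Mael in 444wt. The list's median was 6.41, 7.42, 4.22 and 13.5 FPKM, in each sample the value of Piwil1 or Ldhc. The 8 early meiotic markers were all highest in 444wt, and of 7 round spermatid markers 5 were at 0.1 FPKM or more, led by Spaca1 with 2.09 ± 0.369 FPKM and Tnp1 with 0.96 ± 0.59 FPKM, while Prm2 was at 0. The part of these cell types in the differences of Adam2, Adam3, Adam5 and Adam32 was not tested.

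The widely expressed members differed less on the log2(FPKM + 0.1) scale, but all 6 were called, against 58.2% of all genes tested. Adam10, Adam15, Adam17 and Adam9 lay at 5 FPKM or more, where 82.5% of genes were called. The range was 0.42 for Adam10 (limma adjusted p = 5.7e-08), which had 61.8 FPKM in 186wt, 62.7 in 343wt, 46.8 in 444wt and 51.1 in 456wt. The lowest sample, 444wt, did not overlap the others. Adam15 had 25.0, 22.1, 29.0 and 34.1 FPKM in the same order of samples (range 0.62, limma adjusted p = 0.000209), and its highest and lowest samples overlapped others. Adam9 had 22.7, 19.9, 15.2 and 17.9 FPKM (range 0.57, limma adjusted p = 5.22e-06), with 186wt above and 444wt below the rest. Adam17 had 26.6, 24.9, 24.5 and 25.1 FPKM. Its range of 0.12 was the smallest of the 20 members tested (limma adjusted p = 0.0342), and the call was lost in 8 of the alternative fits.

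Adam12 stood apart from its class. Its libraries had 1.52 to 1.72 FPKM in 186wt, 3.80 to 4.19 in 343wt, 1.59 to 1.84 in 444wt and 2.23 to 2.68 in 456wt, so that 343wt lay above all others (range 1.25, limma adjusted p = 2.75e-06). The Leydig and macrophage markers were also highest in 343wt, with summed FPKM of 56.5, 110.5, 16.1 and 60.9 for 6 Leydig markers and of 11.4, 21.1, 5.44 and 15.8 for 5 macrophage markers. Their part in the level of Adam12 was not tested. Adam19 was highest in 456wt (range 0.63, limma adjusted p = 0.00524), a call that was lost without that sample (limma adjusted p = 0.0954).

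Of the members restricted to other tissues 4 of 6 tested were called, against 58.2% of all genes tested. Adam23 had 1.91, 2.90, 2.11 and 4.19 FPKM over 186wt, 343wt, 444wt and 456wt, with 456wt above all other libraries (range 1.10, limma adjusted p = 8.69e-06). Adam33 was also highest in 456wt, at 1.63 to 1.91 FPKM against at most 1.10 elsewhere (range 1.14, limma adjusted p = 0.00591), and without 456wt its limma adjusted p was 0.544. Adam11 had 2.59, 2.33, 4.69 and 3.90 FPKM (range 0.99, limma adjusted p = 0.00127), with overlapping libraries. Adam8 had 2.38, 1.59, 1.14 and 1.25 FPKM (limma adjusted p = 0.0158), and the call was lost without library 2 of 186wt (limma adjusted p = 0.0667), without 186wt (limma adjusted p = 0.305) or with no filter on low values (limma adjusted p = 0.0592). Adam22 had 5.47, 5.21, 5.62 and 6.47 FPKM and did not pass the test (limma adjusted p = 0.177), nor did Adam28 (limma adjusted p = 0.848).

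The intron-poor testis members gave 1 call among 4 tested, against 58.2% of all genes tested. Adam30, Adam1b and Adam4 lay at 0.1 to 0.5 FPKM, where 14.2% of genes were called. Adam1a had 1.85, 1.55, 1.08 and 1.27 FPKM over the 4 samples in the same order (range 0.71, limma adjusted p = 0.0069). Its highest and lowest samples overlapped others, and the call was lost without 444wt (limma adjusted p = 0.0635). Adam1a thus had its highest mean in 186wt and its fertilin partner Adam2 in 456wt. The other fertilin alpha gene, Adam1b, had 0.173, 0.19, 0.11 and 0.357 FPKM, with the same highest and lowest samples as Adam2. Its libraries overlapped and it was not called. The limma adjusted p was 0.166 for Adam30, 0.17 for Adam1b and 0.215 for Adam4, with ranges of 0.88, 1.05 and 0.94 and about 49 to 106 estimated fragments in all behind each.

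**Figure D5:**
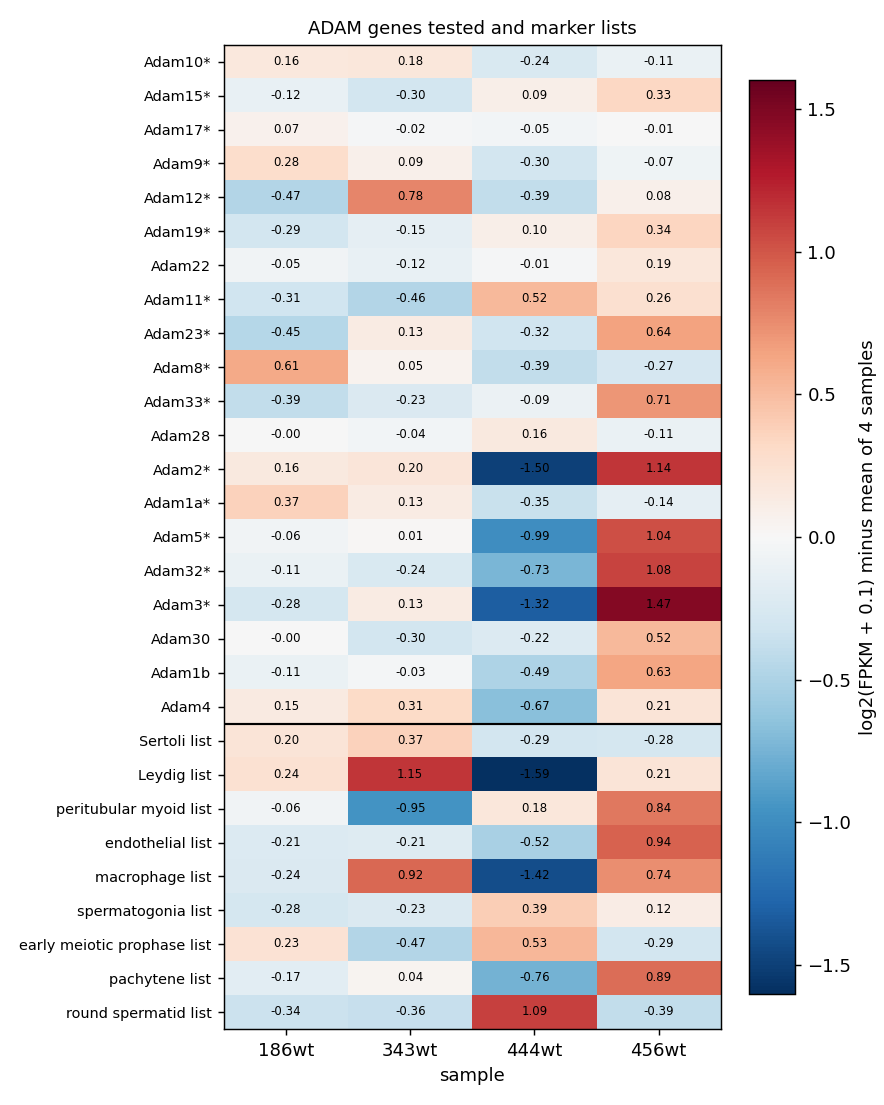
Deviation of log2(FPKM + 0.1) from the mean of the 4 samples for the 20 members tested (above the line, an asterisk marks a limma adjusted p under 0.05) and, on the same scale, for the median FPKM of the marker lists (below the line). Adam2, Adam3, Adam5 and Adam32 are at -1.50 to -0.73 in 444wt and at 1.04 to 1.47 in 456wt, and Adam12 is at 0.78 in 343wt.

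Over all 15 called members, 8 were highest in 456wt (28% of all genes called), 4 in 186wt (15.7%), 2 in 343wt (18.9%) and 1 in 444wt (37.4%). The lowest sample was 444wt in 9 (24%), 186wt in 4 (28.5%), 343wt in 2 (33.1%) and 456wt in 0 (14.4%). Counted by library, the highest sample lay wholly above the others in 10 of 20 members, as in 30.5% of all genes tested, and the lowest wholly below them in 5, as in 26.1%.

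Genes whose products act with ADAM proteins were measured from lists of known partners. Of the factors that mouse sperm need to fold, sulphate or process ADAM2 and ADAM3, 11 of 12 were found, and 6 of 8 tested were called, against 58.2% of all genes tested. The highest were Tex101 with 264 ± 64.2 FPKM, Ly6k with 64.2 ± 15.0 FPKM and Ace with 25.7 ± 8.15 FPKM. The chaperone gene Clgn had 15.2, 14.7, 11.6 and 22.3 FPKM over 186wt, 343wt, 444wt and 456wt (range 0.94, limma adjusted p = 2.25e-07), the same highest and lowest samples as Adam2 and Adam3. Cmtm2b also had them, at 0.0867, 0.167, 0 and 0.36 FPKM (range 2.09, limma adjusted p = 0.0157). Cmtm2b passed the filter on low values only through 456wt, so its order is partly fixed by the filter. Of the 6 called factors only these 2 had this order, against 609 of all 12107 genes called. Prss37 and Rnase10 were listed at 0. Several of these factors were thus present at levels far above that of Adam3.

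Most partners of the widely expressed members were at 0.1 FPKM or more, with the convertase gene Pcsk1 below it at 0.0492 ± 0.0223 FPKM. The convertase gene Furin had 45.5 ± 8.27 FPKM, and 5 of 6 convertases tested were called (58.2% of all genes tested), none with a range over 1. Of the tetraspanins that bind ADAM10, Tspan17 led with 65.6 ± 20.9 FPKM before Tspan5 with 31.4 ± 8.66 FPKM and Tspan14 with 26.0 ± 5.02 FPKM. Of the 5 called tetraspanins Tspan17 and Tspan5 were highest in 343wt, while Tspan14, Tspan15 and Tspan33 were lowest there, and Adam10 was highest in 343wt with libraries that overlapped those of 186wt. The iRhom genes that carry ADAM17 to the cell surface were at 33.1 ± 5.71 FPKM for Rhbdf2 and 12.1 ± 3.10 FPKM for Rhbdf1, and their partner Frmd8 was at 18.7 ± 1.21 FPKM. Of the metalloprotease inhibitors Timp2 had 105.6 ± 29.6 FPKM, lowest in 444wt (range 1.03, limma adjusted p = 9.29e-10), and Timp3, which inhibits ADAM17, had 58.0 ± 9.87 FPKM.

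Of 28 genes for shed proteins 27 were tested and 21 called, against 58.2% of all genes tested. A range over 1 was found in 7 of those called (Btc, Nrg1, Cx3cl1, Kitl, Cdh1, Dll1 and Notch3), while 10.5% of all genes tested were called with such a range. The highest were App, the amyloid precursor, with 185.6 ± 34.9 FPKM, Kit, the receptor of spermatogonia for stem cell factor, with 45.2 ± 9.38 FPKM, and its ligand Kitl, made by Sertoli cells, with 41.8 ± 14.8 FPKM. Kitl was lower in 444wt (31.6 FPKM) and 456wt (28.0 FPKM) than in 186wt (47.8 FPKM) and 343wt (59.9 FPKM), as the sum of Sertoli markers was. Among the ADAM22 ligands Lgi4 led with 3.42 ± 1.63 FPKM (range 1.59, limma adjusted p = 5.45e-05), followed by Lgi2 with 1.61 ± 0.443 FPKM and Lgi3 with 0.62 ± 0.111 FPKM.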

How the data were processed

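RNA-seq was measured in 12 libraries of enriched germ cells, grouped by the sample number in their titles, and the study's 9 Affinity-seq, ChIP-seq and input samples were not analysed here. Paired-end reads of 100 bp were mapped by the authors with Bowtie 0.12.9 against transcripts of NCBI build 37. They discarded reads with several mismatches, and FPKM were computed by the authors using RSEM 1.2.8. The deposited FPKM are rounded to 2 decimals, with a column for each library, and the strand setting is not given in the sources used here. RSEM's division of shared reads makes near-identical genes less certain.

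Members were chosen by symbol and placed with GENCODE M1. The members, classes and lists of markers and partners were chosen with earlier results of these data known. Members with a mean of at least 0.1 FPKM are named with mean and SD, the highest of each class and those with the largest ranges with all samples, and of the partner lists the 3 highest genes and called ones with a range over 1. Clgn, Cmtm2b and other listed genes outside these were named after their values were seen. Differences between sample numbers were tested on log2(FPKM + 0.1) by the F-test of limma 3.58.1 (R 4.3.3), using lmFit, then eBayes with a trend, with Benjamini-Hochberg adjustment over all genes tested. All else was done in Python 3.11.15 (numpy 2.4.6, pandas 2.3.3, matplotlib 3.10.9).

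Since no read counts were used, the depth was estimated from the steps between low FPKM values. On simulated libraries of 7385 genes the largest error of this estimate was 0.131%. The simulation used the same model as the estimate. It therefore does not measure errors from shared reads or from a wrong length offset, the bases taken off each transcript length. In the data the fitted offset was 60 bases, and the error of the depth there is not known. The estimate gave 41.6 to 51.0 M (mega) fragments per sample number. For single-transcript genes it gives the fragments behind a value, and fragment numbers for genes with several transcripts are rough. Promoter windows came from RefSeq on GRCm38.p6 and were matched by symbol. Alternatives changed the minimum FPKM, the pseudocount, the class lists, the scaling, the replicate block and the libraries or samples included.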

Additional observations from a re-analysis of the deposited data

Results flagged for a closer look

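Among 29 values compared over the 4 samples, 1 sample stood apart by Dixon's test. The median of the 19 testis members was 0.08 FPKM in 456wt and 0.01 to 0.02 FPKM in the other 3 samples, and the gap made up 0.857 of the whole range, above the critical value for 4 samples. Chance alone gives about 1.5 such values among 29. The difference was not tested further.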

How the results depend on the processing

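The count of detected members was 20, and 13 with a minimum of 1 FPKM. For the testis class it was 8, and 14 with any value above 0 FPKM and 2 with a minimum of 1 FPKM. The difference of testis minus widely expressed members was -7.36, and -9.22 with a pseudocount of 0.01, -4.43 with a pseudocount of 1, -5.53 with only members of at least 0.1 FPKM, and -4.46 with the members restricted to other tissues added to the widely expressed class. These values are set by how each alternative is built. The direction was the same in all of them. The limma test called 15 members, 17 without a filter, which tests all 32, and 11 to 15 when 1 library or 1 sample was left out, with 11 without 456wt. Of the members called, 7 kept the call in all 22 alternative fits (Adam2, Adam9, Adam10, Adam11, Adam12, Adam15 and Adam23). Adam5 was not tested with a minimum of 1 FPKM and kept the call elsewhere. Adam3 was not tested with that minimum or without 456wt, the sample through which it passes the filter. In these fits 0 calls reversed, where a reversal means that the highest and lowest sample change places. That cannot happen when either of them is left out, so the 0 says little. Some members did get another highest or lowest sample, as Adam33 did without library 3 of 186wt (lowest in 343wt). Rescaling by the median ratio shifted the samples by up to 0.102 on the log2 scale, and all 20 members kept their highest and lowest sample. With library number as a replicate block 15 members were called. Library numbers did not pair the libraries, since deviations correlated at -0.0648 to 0.128 over 18 pairs and 5 of 12 libraries lay closest to their own number. Depth limits the members under 0.1 FPKM, where 1 fragment of a single-transcript member is worth 0.0235 (Adam21) to 0.0294 FPKM (Adam34) in the median library.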

Other observations

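The ADAMTS genes encode the related secreted proteases with thrombospondin repeats, which cut extracellular matrix proteins. Of 19 members in the table, 18 were tested and 14 were called by the limma test, against 58.2% of all genes tested. Of the called members 11 were highest in 456wt and 0 in 343wt, against 28% and 18.9% of all genes called. Their median level was 1.86 FPKM. A range over 1 on the log2 scale was found in 6 called members, while 10.5% of all genes tested were called with such a range. The range was largest in Adamts8 (range 2.73, limma adjusted p = 1.64e-06). Adamts2 had 10.9 FPKM in 186wt, 9.54 in 343wt, 12.1 in 444wt and 23.0 in 456wt (range 1.26, limma adjusted p = 1.49e-08). The peritubular myoid markers were likewise highest in 456wt and lowest in 343wt in their sum, and their part in these differences was not tested. No called ADAMTS member was highest in 456wt and lowest in 444wt. Only 609 of all 12107 genes called had that order, so nothing is read from its absence among 14 genes.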
